A study of Mus musculus with 15 samples.

Results

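The regions described here are stretches of mouse chromatin in which a single accessible peak of 5 kb or more was called after lipopolysaccharide (LPS) and not before it. Overlapping peaks of all 15 ATAC-seq peak lists were merged into 104855 regions on the nuclear chromosomes. A region was a member when no peak of 5 kb or more was called in any of the 3 untreated libraries and one was called in 2 or 3 of the 3 libraries of at least 1 LPS time. This rule chose 466 regions, 0.444% of all, which are called widened regions below. Members were thus chosen by the widths with LPS and without it, and those widths are given as a description and no test was made on them.

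The cells were primary bone marrow-derived macrophages of C57BL/6 mice on day 7 of differentiation. They were given LPS (10 ng/ml) and collected after 30 min, 1 h, 2 h or 4 h, or received none (untreated), with 3 libraries in each of the 5 groups. The groups differ in no other label, and all were grown in medium conditioned by L929 cells, a fibroblast line that supplies the growth factor of macrophages. ATAC-seq cuts DNA where a transposase can reach it, and each library came as its own list of peaks, placed on build mm9 of the mouse genome. These lists held 52447 to 82222 nuclear peaks, the shortest of every LPS time being that of replicate 3. The number of reads behind them is unknown, so a missing peak means that none was called, and the width of a peak may follow depth. The labels call the libraries triplicates and name no separate mice or cultures, so the spread between them may be technical. A bulk library cannot tell a stretch that opened in more cells from one that opened further in each cell.

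LPS is a part of the outer membrane of Gram-negative bacteria and is sensed on macrophages by the receptor TLR4. TLR4 acts through NF-kB and MAP kinases on early inflammatory genes, and through the adaptor TRIF on interferon-beta, whose own signal then drives a later set of antiviral genes. Accessible sites of most promoters and enhancers are short and hold little more than the factors bound there. Wide accessible stretches are known from clusters of neighbouring enhancers and from the bodies of genes under heavy transcription. An annotation of build mm9 was not used. Regions are therefore given by position, what gene each one lies in was not analysed here, nor was the label of the cells checked against marker genes.

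Widened regions were, before LPS, mostly places that already had a peak. All 3 untreated libraries had a peak in 438 of the 466 regions, 2 libraries in 9, 1 library in 5 and none in 14. The like share over other regions of such length is not given here. The median of the widest untreated peak was 2485 bp. At the first time at which a region reached the limit, its widest peak exceeded the untreated one by a median of 3479 bp, with quartiles of 2572 and 4909 bp, taking the median of 3 libraries for each group. The differences ran between 370 and 91827 bp. In 118 regions at least 1 library had a peak of 10 kb or more, and in 34 regions one of 20 kb or more.

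The smallest difference shows what the limit does. On chromosome 14 at 62298818 to 62304113 the widest peak was 3239, 4725 and 4681 bp in the untreated libraries, 5051, 5134 and 4310 bp at 30 min, and 5025, 5184 and 5072 bp at 2 h. Its median width crossed 5 kb with a difference of 370 bp. The members closest to the limit had a deciding width of 5002 bp (chromosome 4 at 149314092 to 149319296 and chromosome 9 at 60901512 to 60907039) and 5003 bp (chromosome 16 at 23608038 to 23613192). The regions just outside it had 4997 bp (chromosome 7 at 20405180 to 20410653), 4995 bp (chromosome 8 at 124803606 to 124808823) and 4994 bp (chromosome 10 at 127101513 to 127106839).

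Per library, the widened regions held about as many peaks with LPS as without it, and the peaks covered more of their length. The 466 regions held 1070 ± 52.4 separate peaks in untreated libraries, 1080 ± 73.1 after 30 min of LPS, 1080 ± 19 after 1 h, 1020 ± 22.4 after 2 h and 989 ± 82.8 after 4 h (3 libraries each, SD). The length under those peaks was 2140 ± 292 kb untreated, 3130 ± 267 kb after 30 min of LPS, 3560 ± 408 kb after 1 h, 4280 ± 114 kb after 2 h and 3870 ± 433 kb after 4 h (3 libraries each, SD). The rule fixes the direction of the covered length, so the sums carry no test.

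The number of widened regions that were wide in a library was 96, 122 and 89 at 30 min, 155, 175 and 79 at 1 h, 287, 298 and 271 at 2 h, and 276, 336 and 143 at 4 h, for replicates 1, 2 and 3 in each case. By the rule it was 0 in the untreated libraries. The 2 h libraries lay close together, while replicate 3 stood well below the other libraries at 1 h and at 4 h. Replicate 3 at 1 h also had the shortest list of all, 52447 peaks, and replicate 3 at 4 h had 55777. The part of list length in these differences was not tested.

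Regions crossed the limit at all 4 times. The first time was 30 min for 92 regions, 1 h for 74, 2 h for 203 and 4 h for 97, so that 2 h held the most. With a limit of 10 kb the counts were 32, 20, 27 and 19, and 30 min held the most. The counts also rested on single libraries. The 30 min class had 48 or 61 regions without 30 min replicate 2 or 3 and 154 without untreated replicate 2, and the 1 h class had 22 or 15 without 1 h replicate 1 or 2. The 2 h class had 125 or 119 without 2 h replicate 1 or 2, and the 4 h class 22 or 23 without 4 h replicate 1 or 2. A region was wide in 2 or 3 libraries at a single time in 230 cases and at all 4 times in 38. In 15 regions every one of the 12 LPS libraries had a peak of 5 kb or more. The course was interrupted, with a time below the rule between times that met it, in 24 regions. Where 3 of 3 libraries were asked for at the first time, 156 regions passed, 41 of the 30 min class, 13 of the 1 h class, 88 of the 2 h class and 14 of the 4 h class.

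**Figure D1:**
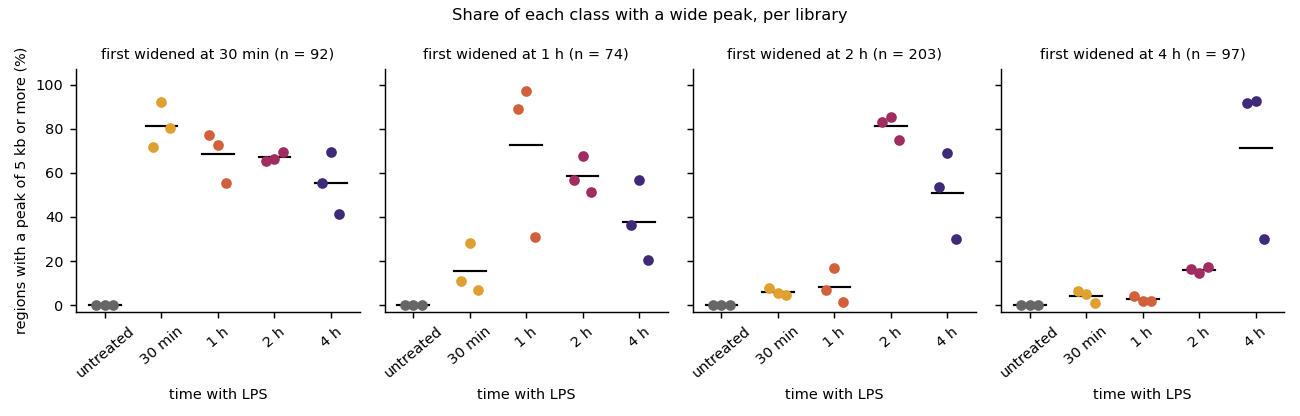
Each panel is a class of widened regions by first time. The vertical axis gives the percentage of the class with a peak of 5 kb or more in a library, the horizontal axis the time with LPS, each point is a library and each bar the mean of 3 libraries. In the class first widened at 1 h, replicate 3 reached 31.1% at 1 h against 89.2% and 97.3% in replicates 1 and 2, and in the class first widened at 4 h it reached 29.9% against 91.8% and 92.8%.

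The last time at which a region met the rule was counted by class. Some regions fell below the rule in between, so these counts are not durations, and differences between the classes were not tested. Of the 92 regions first widened at 30 min, 49 (53.3%) met the rule at 4 h, 21 met it last at 2 h, 11 last at 1 h and 11 at 30 min alone. Of the 74 first widened at 1 h, 28 (37.8%) met it at 4 h, 24 last at 2 h and 22 at 1 h alone. The 203 first widened at 2 h divided into 103 (50.7%) that met it at 4 h and 100 that did not. Which of these last regions count as kept rests on the 4 h libraries, since 53.7% and 69.0% of the 203 were wide in 4 h replicates 1 and 2 and 30.0% in replicate 3.

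Median widths followed the first times, as the rule asks. Regions of the 30 min class had a median widest peak of 3218 bp untreated, 6279 bp at 30 min, 5818 bp at 1 h, 5725 bp at 2 h and 5157 bp at 4 h. Those of the 1 h class had 2206, 3416, 5912, 5560 and 4094 bp over the same series. Those of the 2 h class had 2447, 2887, 3081, 5635 and 5016 bp, and those of the 4 h class had 2174, 2522, 2537, 3542 and 5494 bp. The 30 min class started from the widest untreated peaks, and the 4 h class was already longer at 2 h than at the times before.

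The 189 regions that no longer met the rule at 4 h were compared with their untreated state at that time. Their median widest peak was 936 bp longer at 4 h than untreated. It lay within 500 bp of the untreated width in 61 regions and below it in 26. In 70 regions (37.0%) each of the 3 libraries at 4 h had a wider peak than each of the 3 untreated ones, as in 8.78% of all regions and 10.1% of the 34348 other regions with a peak in every library. Covered length at 4 h was above the untreated value in 165 of the 189 (87.3%), by a median of 1340 bp over all 189, and in 57.8% of those 34348 regions. The untreated widths had a part in the choice of the 189, and no test was made.

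Widening was set against narrowing by the mirror rule, which asks for a peak of 5 kb or more in 2 or 3 untreated libraries and in none of the 3 of an LPS time. At 30 min, 92 regions (0.0877% of all) met the rule for widening and 55 (0.0525%) the one for narrowing. At 1 h the counts were close, 140 (0.134%) against 131 (0.125%). At 2 h they were 313 (0.299%) against 87 (0.083%), and at 4 h 277 (0.264%) against 77 (0.0734%). Over the whole course, 466 regions widened at one or more times, and 19 (0.0181%) were wide untreated and wide in none of the 12 LPS libraries, a condition that asks for more libraries and so allows fewer regions. The count of 19 became 4 or 6 without untreated replicate 2 or 3 and 37 without 30 min replicate 1.

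The directions also differed in size. A difference of 10 kb or more separated LPS from untreated medians in 12, 27, 24 and 19 widened regions at 30 min, 1 h, 2 h and 4 h, and in 0 narrowed regions at each time. The largest widening was 44593, 48779, 91827 and 69408 bp at those times, and the largest narrowing -4027, -8511, -8941 and -6606 bp. The median widening ran between 3342 and 3899 bp, and the median narrowing between -2062 and -2852 bp. Widths of the 3 LPS and the 3 untreated libraries did not overlap in 69 of the 92 regions widened at 30 min, 115 of 140 at 1 h, 271 of 313 at 2 h and 220 of 277 at 4 h. Among all 104855 regions every LPS library was wider than every untreated one in 3.63%, 4.76%, 13.4% and 8.78% at those times. Among narrowed regions they did not overlap in 17 of 55, 79 of 131, 46 of 87 and 38 of 77, and every LPS library was the narrower in 2.5%, 6.4%, 3.44% and 3.51% of all regions. These widths chose both sets, so nothing is read from the counts.

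**Figure D2:**
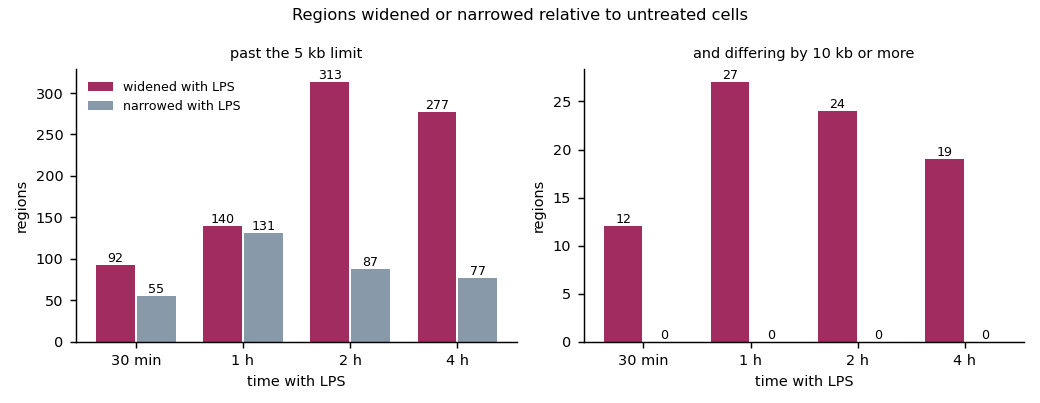
Number of regions (vertical axis) that met the rule for widening or for narrowing at each LPS time (horizontal axis), on the left by the 5 kb limit and on the right where the medians of the 3 LPS and 3 untreated libraries also differed by 10 kb or more. Widened regions outnumber narrowed ones by 313 against 87 at 2 h and are nearly level with them at 1 h, 140 against 131.

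Widened regions held part of the wide peaks of the lists, and the number of all wide peaks did not differ detectably with LPS. The 12 LPS libraries had a mean of 583 peaks of 5 kb or more, against 424 in the 3 untreated libraries (exact two-sided permutation p = 0.242, smallest possible p 0.0022). The untreated libraries themselves had 210, 685 and 376. Means were 482 ± 105 after 30 min, 442 ± 134 after 1 h, 726 ± 63.1 after 2 h and 683 ± 287 after 4 h, against 424 ± 241 untreated (SD, n = 3 each). No difference from untreated was detectable at any of the 4 times (exact two-sided permutation p = 0.7, 1.0, 0.2 and 0.2, Benjamini-Hochberg adjusted 0.933, 1.0, 0.4 and 0.4), in a design whose smallest p is 0.1. With a limit of 10 kb in place of 5 kb, every LPS library had more such peaks than every untreated one and the difference of 52 peaks reached p = 0.0022, the smallest the exact permutation test can give. The 10 kb limit was 1 of several settings tried, and this p was not adjusted for their number. No other setting gave a p below 0.05.

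The widths were also measured in libraries that were left out of the rule. Their peaks had still been among those merged into regions, so they had a part in the borders of the regions. The rule was applied to 2 replicate numbers, and the chosen regions were then measured in the replicate left out, wherever both its LPS and its untreated library had a peak. In replicate 3, LPS peaks were wider than untreated ones in 63 of 74 regions (85.1%) at 30 min, 119 of 133 (89.5%) at 1 h, 226 of 240 (94.2%) at 2 h and 218 of 264 (82.6%) at 4 h. Over all regions with a peak in both libraries, which were not matched to the chosen ones for width, those shares were 49.8%, 40.4%, 58.0% and 45.4%. At each time, the chosen regions were thus wider with LPS more often than regions in general in the replicate left out of the rule.

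The size of the difference was measured in the same way. In replicate 3 the median difference of the chosen regions was 2805 bp at 30 min, 1956 bp at 1 h, 2859 bp at 2 h and 1897 bp at 4 h, and over all regions it lay between -80 and 68 bp. In replicate 1 it was 3174, 7479, 3849 and 4622 bp, beside 233, 115, 209 and 158 bp over all regions. In replicate 2 it was 2595, 4476, 2851 and 3642 bp, beside -207, -171, -61 and 64 bp. The median of the chosen regions was thus above that of all regions at each time in each replicate. Passing 5 kb again was less frequent: of all regions chosen, 55 of 74, 63 of 135, 177 of 249 and 121 of 270 had a wide LPS peak in replicate 3, and 15, 11, 20 and 22 a wide untreated one. In replicate 1 a wide LPS peak was found again in 41 of 67, 56 of 66, 162 of 208 and 110 of 128, and a wide untreated one in 0, 0, 1 and 1. In replicate 2 these numbers were 65 of 83, 75 of 86, 206 of 250 and 143 of 157 with LPS, and 35, 24, 51 and 37 untreated. In replicate 1, chosen regions were wider with LPS in 98.5%, 100%, 99.5% and 100% of cases, beside 76.1%, 62.6%, 71.2% and 66.7% of all regions. In replicate 2 the shares were 75.9%, 93.0%, 91.4% and 92.8%, beside 27.4%, 31.9%, 43.1% and 57.6%. The background itself differed between the replicates. The median peak of the whole list was 1255, 1431 and 1426 bp in untreated replicates 1, 2 and 3, and the part of this in the background was not tested.

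**Figure D3:**
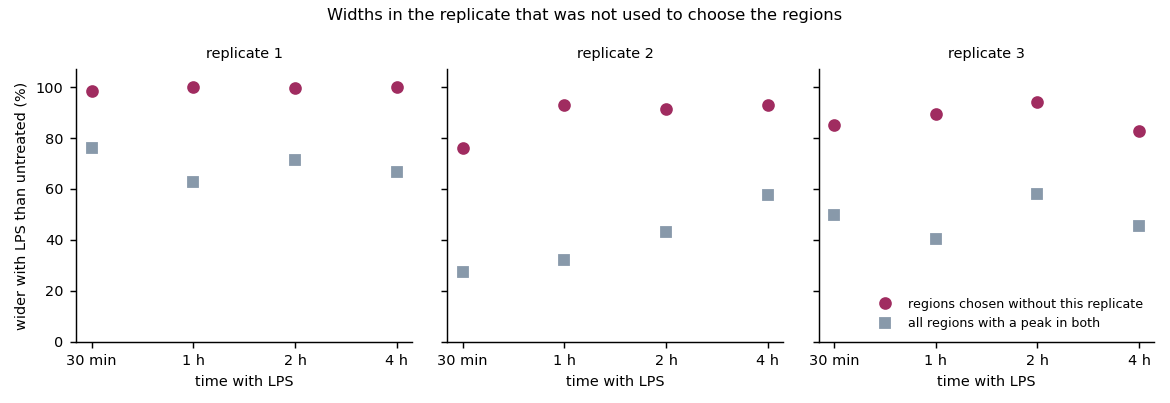
Percentage of regions whose widest peak was wider in the LPS library than in the untreated library of the same replicate number (vertical axis), by time with LPS (horizontal axis). Circles are regions that met the rule in the other replicates, squares are all regions with a peak in both libraries of the replicate shown. Circles lie above squares at each of the 4 times in each of the 3 replicates, between 75.9% and 100% against 27.4% to 76.1%.

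Inside most, but not all, of the new wide peaks, untreated libraries had 2 or more separate peaks. For the library with the median width at the first time, 269 of the 466 wide peaks overlapped 2 or more untreated peaks, 154 overlapped 1 and 43 overlapped none, taking the median of the 3 untreated libraries. Only the widest peak of each region was counted, and other peaks of that library may overlap untreated ones. In 18 regions the wide peak took in 4 or more untreated peaks. Untreated peaks covered a median of 61.8% of the wide peak's length, with quartiles of 33.5% and 76.6%. Wide peaks over several untreated sites made up 65.2% of the 30 min class, 47.3% of the 1 h class, 59.1% of the 2 h class and 55.7% of the 4 h class.

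In 72 regions the wide peak grew around exactly 1 untreated peak in each of the 3 libraries, so that the growth on either side could be measured. The longer side had a median of 2894 bp and the shorter side one of 416 bp. The shorter side was under 500 bp in 40 of the 72, and the longer side was at least 3 times the shorter in 53. The side of lower coordinates was the longer one in 38. Growth was thus uneven between the sides in most of these regions. Since the strand of any gene there was not analysed here, the side cannot be related to transcription.

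The borders of wide peaks were alike between libraries in a part of the regions. Among the 156 regions that were wide in 3 of 3 libraries at the first time, both borders fell within 500 bp in 42 and at least 1 border did in 106. The median spread of a border over 3 libraries was 549 bp. Scores of the widened regions in the untreated lists were read at the widest peak of each region alone. The score that the authors deposited, ranked within its own list, put the widest untreated peak at a median percentile of 83.8, above 75 in 298 regions. The like ranks of other regions are not given here. At the first time, 780 of the 1088 wide peaks in widened regions (71.7%) had a score of 3100 or more, beside 73.2% of all wide peaks in LPS lists.

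The regions named below are the 6 of each class with the largest difference between the median width at the first time and the untreated median. The largest early one lay on chromosome 5 at 139228679 to 139293867. Its widest peak was 4392, 4020 and 4043 bp in the untreated libraries, 48636, 28937 and 52268 bp at 30 min, 52490, 8006 and 20777 bp at 1 h, 4005, 4893 and 8836 bp at 2 h, and 3920, 4721 and 5914 bp at 4 h. Peaks covered 96.6%, 92.3% and 97.6% of the region at 30 min, against 34.7%, 39.2% and 23.0% untreated, and at 4 h 20.9%, 26.3% and 19.1%. The region was covered nearly end to end within 30 min and was back to separate sites by 4 h, when less of it was covered than in untreated replicates 1 and 2. The ends of a region are those of its outermost peaks in any library. High cover at the widest time therefore follows in part from the merging, here and in the regions below.

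A second early region on chromosome 5, at 99639428 to 99684794, stayed wide somewhat longer. It measured 2210, 4741 and 4842 bp untreated, 35271, 42713 and 44523 bp at 30 min, 45363, 36752 and 38475 bp at 1 h, 4217, 5820 and 6916 bp at 2 h, and 2521, 4106 and 5043 bp at 4 h. The upper border was within 44 bp in the 3 libraries at 30 min, while the lower border ranged over 9287 bp. The region on chromosome 13 at 43879338 to 43909799 had the same kind of course, with 8904, 25596 and 28747 bp at 30 min, 29002, 25525 and 28781 bp at 1 h and 3974, 3770 and 3902 bp at 2 h, after 3523, 3566 and 2122 bp untreated. In all of these the widths of the 3 libraries at 30 min lay above every untreated width.

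Other early regions kept a wide peak to 4 h. On chromosome 10 at 18713273 to 18737023 the widest peak was 2099, 2809 and 2163 bp untreated, 12881, 21604 and 21587 bp at 30 min, 21772, 21301 and 15828 bp at 1 h, 21663, 21439 and 21767 bp at 2 h, and 22104, 22290 and 11697 bp at 4 h. The wide peak stood where untreated libraries had 5, 6 and 4 separate peaks. In 9 of the 12 LPS libraries its width lay between 21301 and 22290 bp, and in the other 3 the stretch was divided into 2 or 3 peaks by short gaps.

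On chromosome 1, a pair of early regions 119 bp apart behaved alike. The one at 132931723 to 132962352 had 2279, 3821 and 3207 bp untreated, 8594, 23887 and 30630 bp at 30 min, 16855, 26532 and 28794 bp at 1 h, 28256, 28424 and 28294 bp at 2 h, and 16664, 23820 and 16532 bp at 4 h. Its neighbour at 132962472 to 132995390 had 4026, 4167 and 4166 bp untreated, 10724, 18238 and 32881 bp at 30 min, 27269, 32855 and 11020 bp at 1 h, 27523, 32718 and 27416 bp at 2 h, and 11011, 16916 and 10630 bp at 4 h. Both were wide in all 12 LPS libraries. On chromosome 16 at 55801168 to 55826710, the last of the 6, median widths were greater at the first 2 times than later: 18422, 21304 and 23076 bp at 30 min, 22187, 21216 and 13340 bp at 1 h, 8579, 18536 and 7295 bp at 2 h, and 6129, 5405 and 4030 bp at 4 h, after 2483, 3129 and 2846 bp untreated.

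**Figure D4:**
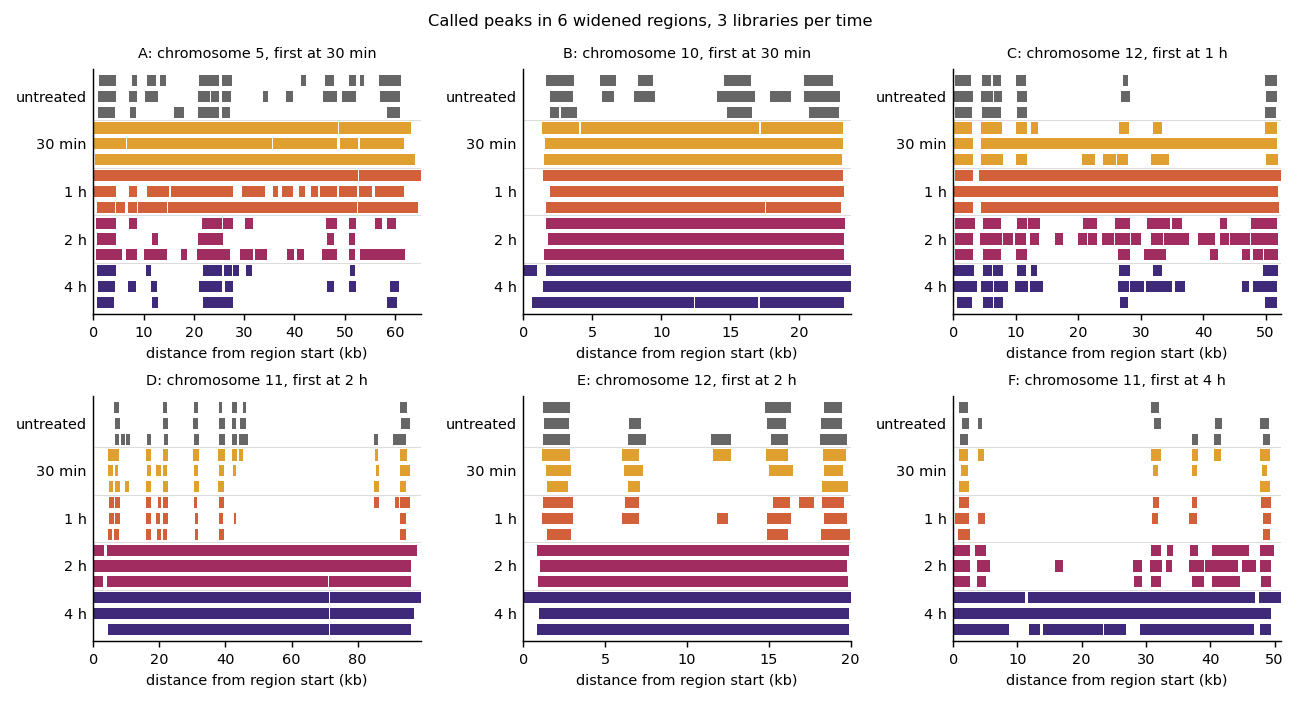
Called peaks (bars) of all 15 libraries along 6 widened regions, drawn to scale by distance from the start of the region in kb on the horizontal axis, with the 3 libraries of each time as rows, untreated at the top and 4 h at the bottom. Separate untreated peaks give way to nearly continuous cover at 30 min in A and B, at 1 h in C, at 2 h in D and E and at 4 h in F. The cover is broken up again at 2 h in A (30.4%, 18.9% and 62.4%) and C (46.8%, 74.9% and 36.4%), and lasts to 4 h in B, D and E.

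Among regions first widened at 1 h, that on chromosome 12 at 86938279 to 86990735 was wide at 1 h alone. It had 2590, 3065 and 2723 bp untreated, 3346, 47446 and 3515 bp at 30 min, 48392, 52026 and 47630 bp at 1 h, 4134, 4256 and 3459 bp at 2 h, and 3263, 4263 and 2371 bp at 4 h. Replicate 2 at 30 min already had the wide peak, and the other libraries of that time had widths near the untreated ones. At 1 h peaks covered 97.8%, 99.2% and 96.7% of the region, against 18.4%, 21.6% and 17.4% untreated. At 2 h no single wide peak was left, and separate peaks covered 46.8%, 74.9% and 36.4%. The region on chromosome 4 at 150232430 to 150249753 met the rule at 1 h alone as well, with 17040, 8284 and 17324 bp, against 1463, 1636 and 1526 bp untreated, and with 8179 bp in replicate 2 at 30 min.

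Replicate 2 at 30 min led in a further 1 h region. On chromosome 2 at 102686656 to 102743088 the widest peak was 2356, 3437 and 1831 bp untreated, 4326, 15454 and 4954 bp at 30 min, 51135, 56360 and 6159 bp at 1 h, 32419, 33769 and 14421 bp at 2 h, and 4445, 4114 and 2995 bp at 4 h. Its neighbour 496 bp away, at 102647294 to 102686159, measured 13343, 23334 and 3142 bp at 1 h and 8031, 14648 and 5920 bp at 2 h, against 1513, 1862 and 1618 bp untreated. In both, replicate 3 was the least wide at 1 h. Of the 74 regions of the 1 h class, 8, 21 and 5 had a wide peak in replicates 1, 2 and 3 at 30 min, so the lead of replicate 2 was shared by part of the class.

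The remaining 1 h regions among the largest stayed wide to 4 h. On chromosome 2 at 164879243 to 164907633 widths were 20947, 23591 and 11053 bp at 1 h, 11524, 20668 and 20308 bp at 2 h, and 14023, 11961 and 7378 bp at 4 h, after 1917, 2818 and 2495 bp untreated. On chromosome 2 at 34791788 to 34823639 they were 13220, 14439 and 5264 bp at 1 h, 9730, 11541 and 9351 bp at 2 h, and 11907, 15755 and 6498 bp at 4 h, after 1913, 2827 and 1580 bp untreated. Neither region had a library from 1 h on that came down to its untreated widths.

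The widest peak among all members appeared at 2 h on chromosome 11 at 119258997 to 119358168. Widths there were 1878, 1844 and 4145 bp untreated, 2105, 3162 and 1981 bp at 30 min, 3015, 1881 and 1701 bp at 1 h, 93705, 96148 and 66811 bp at 2 h, and 71300, 71286 and 66902 bp at 4 h. Peaks covered 97.6%, 97.0% and 94.9% of the 99172 bp at 2 h, against 9.1%, 12.2% and 19.5% untreated. In 2 h replicate 3 the widest peak ended 71098 bp from the region's start, and in the 4 h libraries it ended 71365, 71305 and 71368 bp from it. In these 4 libraries another peak of 24330 to 27678 bp followed. The widest peaks of 66811 and 66902 bp also began later, at 4288 and 4467 bp.

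The region on chromosome 12 at 27122328 to 27142352 had a regular step. Its widest peak was 1649, 1562 and 1652 bp untreated, 1672, 1524 and 1606 bp at 30 min, 1833, 1897 and 1730 bp at 1 h, 19077, 18751 and 18943 bp at 2 h, and 20025, 18925 and 19059 bp at 4 h. The borders at 2 h lay within 192 and 134 bp in the 3 libraries. Untreated libraries had 3, 4 and 5 separate peaks there, and each library from 2 h on had 1. The libraries at 30 min and 1 h stood near the untreated widths, and those of 2 h and 4 h all lay between 18751 and 20025 bp.

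Chromosome 16 held 2 of the largest 2 h regions, 67974 bp apart. That at 97661804 to 97686416 measured 21355, 12253 and 21300 bp at 2 h and 24486, 16249 and 15120 bp at 4 h, against 1292, 1541 and 1386 bp untreated. That at 97754391 to 97792766 measured 37408, 21570 and 14104 bp at 2 h and 38376, 37499 and 14707 bp at 4 h, against 3012, 3819 and 3431 bp untreated. The second was covered to 97.5%, 96.1% and 96.1% at 2 h, so its shorter peaks there come from gaps within a stretch of the same extent. Untreated libraries had 1, 1 and 2 peaks in it and covered 7.85%, 9.95% and 12.2%.

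The largest difference in the class first widened at 4 h, 33957 bp, was below those of the other classes. This region, on chromosome 11 at 78732481 to 78783487, had 1316, 1444 and 1158 bp untreated, 1609, 1114 and 1605 bp at 30 min, 1630, 2096 and 1819 bp at 1 h, 3198, 5082 and 4370 bp at 2 h, and 35273, 49372 and 17649 bp at 4 h. Covered length was 97.7%, 96.8% and 83.1% at 4 h and 31.3%, 41.2% and 28.6% at 2 h, against 4.83%, 10.3% and 8.5% untreated. The 2 h libraries were thus between, with 8, 10 and 7 separate peaks. On chromosome 7 at 95449160 to 95470054 the widths were 19594, 16068 and 7734 bp at 4 h, against 1839, 2097 and 1988 bp untreated, and 2904, 3035 and 2289 bp at 2 h.

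The other large 4 h regions had a partial step at 2 h in some cases. On chromosome 19 at 34643235 to 34655713 widths were 6598, 3832 and 3917 bp at 2 h and 12479, 10705 and 6881 bp at 4 h, after 770, 1346 and 1681 bp untreated. On chromosome 19 at 29437932 to 29448092 they were 4684, 4845 and 4177 bp at 2 h and 10161, 9444 and 7678 bp at 4 h, after 1840, 1810 and 1903 bp untreated. On chromosome 2 at 11389822 to 11420530 they were 2077, 4870 and 5541 bp at 2 h and 11402, 12449 and 7395 bp at 4 h, after 1853, 2009 and 1814 bp untreated. In that region each untreated library had 1 peak. The widest peak of the 4 h library with the median width did not overlap that untreated site. Another peak of 5 kb or more in the same library covered the site, as did one in each other 4 h library.

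A break in the series marked the region on chromosome 13 at 55092071 to 55110070. Its widths were 2837, 2762 and 1991 bp untreated, 2670 bp, no peak and 4481 bp at 30 min, 1161 bp, no peak and 1602 bp at 1 h, 1574 bp, no peak and 2032 bp at 2 h, and 15409, 10074 and 11464 bp at 4 h. Replicate 2 was without a peak at the 3 times before 4 h. With no peak counted as 0, widths at 1 h were below every untreated width, and those at 4 h above all.

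In 14 widened regions no untreated library had any peak, so that the whole wide stretch was called with LPS alone. The one with the largest median width at its first time lay on chromosome 11 at 21048951 to 21062955, with 13934, 13393 and 7243 bp at 2 h and 5891, 7325 and 3622 bp at 4 h. At 30 min replicate 1 had a peak of 1164 bp there, and at 1 h replicates 2 and 3 had peaks of 1613 and 1018 bp. Another, on chromosome 9 at 66706604 to 66717600, was called at 10969, 10896 and 1316 bp at 1 h, and at 1951 bp, no peak and 1931 bp at 2 h. Of the 14 regions, 3 lay together on chromosome 2 in the run described next.

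Some widened regions had another one close by, and no like count was made for other regions. The nearest other member was within 1 kb for 40 regions, within 10 kb for 104, within 50 kb for 167 and within 100 kb for 200 of the 466. With gaps of up to 50 kb bridged, the 167 regions formed 68 runs, 52 of them pairs and 16 of 3 or more. All regions of a run had the same first time in 27 of the 68 runs. Chromosome 2 held 64 widened regions (13.7%, with 8.09% of all regions), chromosome 11 held 49 (10.5%, with 6.83%), chromosome X held 5 (1.07%, with 2.15%) and chromosome Y none.

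The longest run lay on chromosome 2 at 68697551 to 68891219 and held 8 widened regions over 194 kb. Peaks covered 10.3%, 13.7% and 11.9% of it untreated, 17.6%, 26.2% and 16.5% at 30 min, 44.4%, 59.8% and 34.8% at 1 h, 68.9%, 86.2% and 76.2% at 2 h, and 34.5%, 51.4% and 28.8% at 4 h. The first region, at 68697551 to 68713611, met the rule from 30 min to 4 h, with medians of 3383, 5118, 5055, 8779 and 5157 bp over the series. The second and the fourth met it at 1 h and 2 h, and the other 5 at 2 h alone. The rule was thus met first at the end of lower coordinates, but the regions did not follow in order of position. Cover had risen elsewhere by 30 min as well. In the third region it was 33.6%, 63.8% and 31.9% at 30 min, against 13.4%, 18.7% and 5.95% untreated. Cover of the whole run was greatest at 2 h and lower at 4 h.

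Widths in some single regions of that run were as follows. At 68716350 to 68729819 the widest peak was 1840, 2093 and 1530 bp untreated, 1810, 3413 and 1880 bp at 30 min, 7349, 5860 and 3536 bp at 1 h, 7436, 13141 and 6922 bp at 2 h, and 2878, 6239 and 2047 bp at 4 h. Next to it, at 68729871 to 68756125, one of the 6 largest of the 2 h class measured 4297, 8088 and 4249 bp at 1 h and 11546, 26232 and 17039 bp at 2 h, after 1734, 1733 and 1562 bp untreated. At 68785830 to 68805464 no untreated library had a peak, and widths were 2244, 9038 and 2066 bp at 1 h, 4333, 16155 and 8966 bp at 2 h, and 1720, 3312 and 2237 bp at 4 h. At the far end, 68880311 to 68891219, widths were 1024, 1526 and 1562 bp untreated, 1789, 2763 and 1815 bp at 1 h, and 5958, 8817 and 6110 bp at 2 h.

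**Figure D5:**
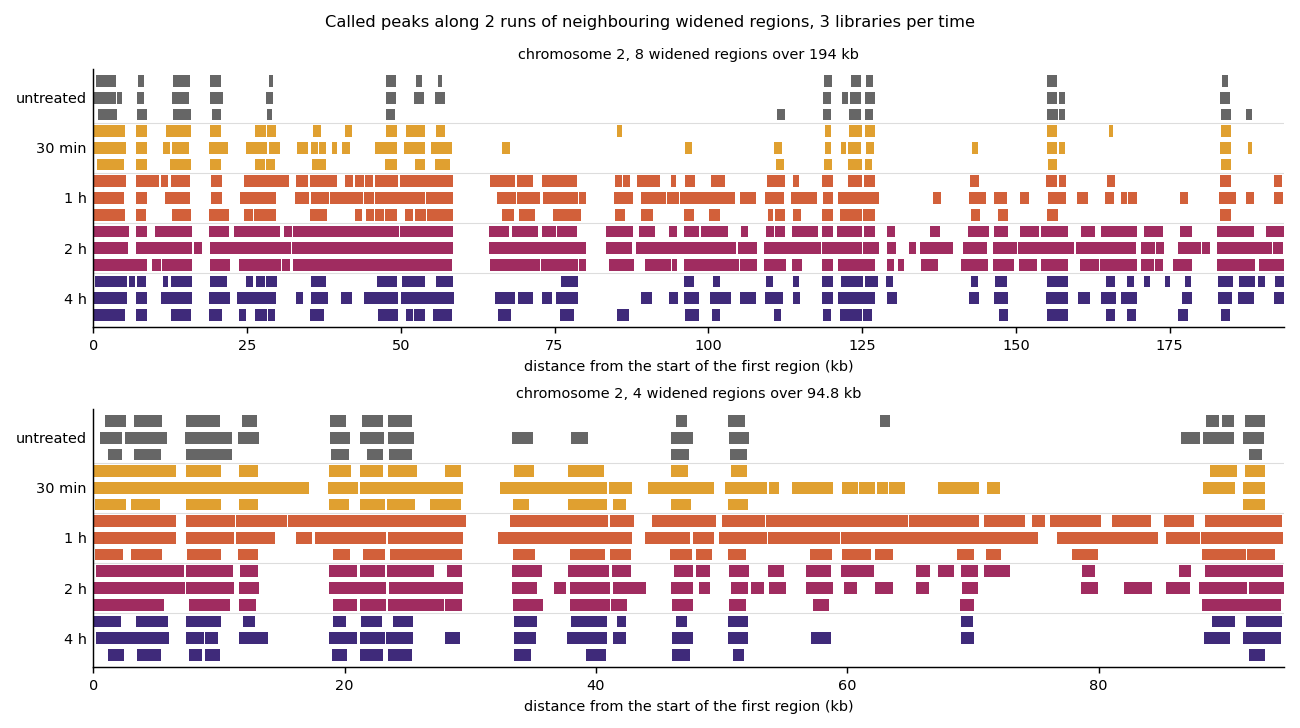
Called peaks (bars) of all 15 libraries along 2 runs of widened regions on chromosome 2, drawn to scale by distance in kb from the start of the first region on the horizontal axis, with the 3 libraries of each time as rows, untreated at the top. In the run of 8 regions over 194 kb, cover is greatest at 2 h (68.9%, 86.2% and 76.2%), and in the run of 4 regions over 94.8 kb at 1 h (88.3%, 89.4% and 46.3%).

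A second run on chromosome 2, at 83560410 to 83655194, held 4 widened regions over 94.8 kb and was earlier. Peaks covered 20.4%, 29.6% and 16.3% of it untreated, 30.4%, 67.5% and 29.3% at 30 min, 88.3%, 89.4% and 46.3% at 1 h, 55.3%, 60.4% and 40.7% at 2 h, and 27.7%, 37.0% and 17.6% at 4 h. Its first region met the rule from 30 min to 2 h, the middle ones at 1 h alone and the last at 1 h and 2 h. Replicate 2 was ahead at 30 min and replicate 3 behind at 1 h, as in the region at 102686656 to 102743088 on the same chromosome. Not all large regions of the 1 h class had this order.

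Some other runs, like the longest one, were covered at 4 h over more of their length than before LPS. The run on chromosome 4 at 144797660 to 144861188 held 4 regions. Peaks covered 46.2%, 51.0% and 53.4% of its span untreated and 77.2%, 78.4% and 68.9% at 30 min. The cover was 89.6%, 90.7% and 79.1% at 1 h, 87.9%, 88.3% and 87.7% at 2 h, and 89.6%, 89.0% and 87.1% at 4 h. The run on chromosome 11 at 117805390 to 117897683 held 6 regions over 92.3 kb. Peaks covered 32.4%, 44.7% and 41.8% of its span untreated, 74.9%, 78.0% and 79.8% at 2 h, and 73.0%, 71.2% and 60.8% at 4 h. In that run 2 regions were wide in all 12 LPS libraries and the 4 between and beside them met the rule first at 2 h, 2 of them at that time alone. The run on chromosome 19 at 41336898 to 41422880 held 5 regions. Peaks covered 35.9%, 38.0% and 33.3% of its span untreated and 36.3%, 42.9% and 27.6% at 1 h. The cover was 59.2%, 77.5% and 72.0% at 2 h, and 73.1%, 88.2% and 65.1% at 4 h, so that the step came after 1 h.

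Around widened regions, new peaks outside the members were also more frequent than around steady regions. A gained region had a peak in 3 of 3 libraries of an LPS time and in 0 of 3 untreated ones, and members were not counted. Such a region lay within 25 kb of 22 of the 92 regions first widened at 30 min (23.9%), 26 of 74 at 1 h (35.1%), 119 of 203 at 2 h (58.6%) and 42 of 97 at 4 h (43.3%). Around the 34348 regions that had a peak in all 15 libraries and were no members, the shares at those times were 4.71%, 9.27%, 22.0% and 12.6%. Regions lost at the same time, by the reverse rule, lay within 25 kb of 0, 0, 1 and 2 widened regions of these classes (0.0%, 0.0%, 0.493% and 2.06%), beside 1.66%, 6.8%, 4.57% and 6.04% of the steady ones. Widened regions are longer, which makes their windows larger, and gains use the same libraries as the rule, so these shares are a description.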

How the data were processed

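ATAC-seq peak lists of 15 libraries were used, 3 untreated and 3 at each of 4 LPS times, grouped by the sample titles. Per the submitters' processing notes, Bowtie 1.1.2, MACS 1.4 and build mm9 were used. Not given in the sources used here are settings, the treatment of duplicates, a transposase shift, a control library and a blacklist. Each library has 1 list, in which the authors deposited the start and end of each peak and a score, which ran between 50.0 and 3233.06 with 5.03% of peaks at 3100. A deposited score belongs to its own list and served to rank and filter peaks there. Read counts were not among the files, depth is unknown, and no counting interval is given.

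Mitochondrial peaks (2 per list) were left out, and overlaps of at least 1 bp joined peaks into regions. At most 13 intervals were identical between any 2 lists, and each list counted as a library. The width of a region in a library is its widest single peak, 0 where none was called, and a group's width is the median of its 3 libraries. Coordinates count the first base as 1. The members, the lists and the rules were chosen with earlier results of these data known. Regions are named by rule: the 6 of each first time with the largest difference and those next to the width limit. Further ones were chosen after their values were seen. They are the smallest difference, some regions without an untreated peak and some, not all, of the runs of 4 or more regions. Numbers of wide peaks per library were compared by exact two-sided permutation of the labels, with Benjamini-Hochberg adjustment over the 4 times. The scripts were tested on simulated lists.

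Planned counts over gene lists, cell type markers, positions in genes and sequences need an annotation or genome of build mm9 and were not made. Alternatives were other width limits, 3 of 3 libraries, a score of 100 or more, lists of equal length, joined or summed peaks, a larger overlap, a replicate block and each library left out. Python 3.11.15, numpy 2.4.6, pandas 2.3.3, scipy 1.17.1 and matplotlib 3.10.9 were used.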

Additional observations from a re-analysis of the deposited data

Results flagged for a closer look

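In 3 of the named regions, every library of one LPS time was wider than every untreated library while every library of another LPS time was narrower. These opposite courses were not tested. On chromosome 13 at 55092071 to 55110070 the median width differed from untreated by 8702 bp at 4 h and by -1601 bp at 1 h. On chromosome 16 at 97754391 to 97792766 it differed by 18139 bp at 2 h and by 34068 bp at 4 h, and by -764 bp at 30 min. On chromosome 2 at 11389822 to 11420530 it differed by 3017 bp at 2 h and by 9549 bp at 4 h, and by -194 bp at 30 min. The shortfall on chromosome 13 includes a library without a peak, replicate 2 at 1 h. Over all 466 widened regions, 16 (3.43%) had such opposite times, each first widened at 2 h or 4 h. The same held in 0.401% of all regions and in 0.754% of the 34348 other regions with a peak in every library, and the widths chose the members. In 14 of them 1 h was the narrower time, and in 5 it was 30 min.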

How the results depend on the processing

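The count of 466 widened regions followed the width limit: it was 878 at 4 kb, 300 at 6 kb and 98 at 10 kb. It was 222 with 3 of 3 libraries and 850 with peaks of a library within 500 bp joined. It stayed within 1.5 times with a score of 100 or more (466), lists of equal length (467), a merging overlap of 500 bp (476) and summed widths (522), and ran between 391 and 600 with 1 library left out. Wide peaks rank high in their lists, so a filter on score leaves them in place and does not take an effect of depth out of their width. The classes of 92, 74, 203 and 97 regions by first time (30 min, 1 h, 2 h and 4 h) became 165, 143, 365 and 205 at 4 kb, 32, 20, 27 and 19 at 10 kb, and 41, 31, 121 and 29 with 3 of 3 libraries. At 6 kb the last 3 classes became 47, 117 and 57. With a library left out, the 30 min class ran between 48 and 154 (48 and 61 without 30 min replicates 2 and 3, 154 without untreated replicate 2). The 1 h class ran between 15 and 102 (22 and 15 without 1 h replicates 1 and 2), the 2 h class between 119 and 240 (125 and 119 without 2 h replicates 1 and 2), and the 4 h class between 22 and 129 (22 and 23 without 4 h replicates 1 and 2). The 19 narrowed regions became 41 at 4 kb and 2 at 10 kb, and 4 to 37 with a library left out (4 and 6 without untreated replicates 2 and 3, 37 without 30 min replicate 1). Differences in the number of wide peaks with a library left out ran between 52.9 and 290 for all LPS libraries, -48.2 and 189 at 30 min, -88.2 and 149 at 1 h, 196 and 433 at 2 h, and 117 and 403 at 4 h. The sign turned without untreated replicate 1 at 30 min (-48.2) and at 1 h (-88.2), and at 1 h also without untreated replicate 3 (-5.17), without 1 h replicates 1 (-9.67) or 2 (-29.7), and at 4 kb (-25). At 10 kb the difference over all LPS libraries was 52 and passed the exact permutation test (p = 0.0022, not adjusted for the number of settings). It did so in no other setting. Measured in replicate 1 in place of 3, the share of chosen regions wider with LPS was 98.5%, 100%, 99.5% and 100%, and in replicate 2 at 4 h 92.8%. The named regions were chosen by these same widths, so their direction was largely set in advance. Among repeats of named regions under these settings none changed direction, 464 stayed within and 16 moved beyond the spread of the libraries, all where peaks were joined or summed. The cause of these shifts was not tested, apart from rules that ask for more or fewer libraries by construction. Over 1821 regions with a wide peak, the deviation of an LPS library from its group mean correlated with that of the untreated library of the same number at 0.017 to 0.325. Of these correlations 6 of 12 exceeded 0.1, and the main permutation test did not take the numbers as pairs. Widths in the replicate left out were compared between libraries of the same number. With the replicate block the rule gave 582 widened regions, and the exact permutation p for wide peaks was 0.192 over all LPS libraries and 0.75, 1.0, 0.25 and 0.25 at the 4 times.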
